A study of Mus musculus with 43 samples.

Results

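The genes described here encode the subunits of oxidative phosphorylation, chosen by name alone as the protein-coding rows of the count table that are mitochondrially encoded (mt- names) or carry the Nduf, Sdh, Uqcr, Cox4 to Cox8 and Atp5 subunit names. The rule found 99 of 56980 genes, of which 13 are encoded by the mitochondrial genome and 86 by the nucleus. The nuclear members comprise 39 subunits of complex I, 4 of complex II, 8 of complex III, 17 of complex IV and 18 of complex V. The mitochondrial members comprise 7 of complex I, 1 of complex III, 3 of complex IV and 2 of complex V. The name pattern did not reach Cox4i1, a subunit of complex IV, nor Ndufab1, Cyc1 and Cycs, which are given apart where they are described. Ndufa4, counted under complex I by its name, is known as a subunit of complex IV.

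RNA-seq was measured in 43 libraries of GFP+ cells sorted from the somatosensory cortex of C57BL/6JRccHsd mice and labelled as layer (L) 2/3 excitatory neurons. At embryonic day (E) 19 there were 4 libraries per sex from WT, from Cux1 KO and from Cux2 KO, at postnatal day (P) 4 each sex of WT and Cux2 KO had 3 and Cux1 KO males had 2, and WT at P7 had 2 from females and 3 from males. GFP came from pCAG-GFP, electroporated in utero before birth, in WT, Cux2-/- and E19 Cux1 KO animals, the last being germline Cux1 ΔC/ΔC. The P4 Cux1 KO cells were Cux1 f/Δ23 and received pCALNL-GFP with pCAG-iCre, so that only electroporated cells became Δ23/Δ23, and the Cux1 KO of the stages therefore differs in allele and plasmid as well as age. Cux1 KO and WT at P4 differ in plasmid too, so genotype there cannot be told apart from Cre and the GFP plasmid. No source states that each library came from its own animal, so p-values measure the spread between these libraries.

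Oxidative phosphorylation passes electrons from NADH through complex I and from succinate through complex II to ubiquinone, complex III and complex IV, and complex V uses the resulting proton gradient to make ATP. Mitochondrial DNA encodes core subunits of complexes I, III, IV and V, whereas every subunit of complex II and most subunits of the others are imported from the cytosol. The respiratory capacity of the brain is known to rise after birth, and several subunits have a second isoform used by other tissues.

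Total counts per library lay between 13321095 and 20715732 at E19, between 19499125 and 60559585 at P4, and between 15312029 and 27633827 at P7. E19 was sequenced in one round and the later stages in another, so that E19 against a later stage cannot be told apart from the round. Markers in the libraries did not stay with the label after E19: the 7 excitatory neuron markers summed to 2860 to 3950 counts per 1000000 (CPM) at E19, against 323 to 1090 at P4 and later, at P7, 170 to 359, whereas the 7 astrocyte and radial glia markers summed to 1110 to 1850, 3070 to 6710 and 7330 to 11000. Slc17a7, the vesicular glutamate transporter of these neurons, was at 0 in 5 of the 12 WT and Cux2 KO libraries of P4. In sorted bulk RNA, fewer cells of a type and less RNA per cell cannot be told apart, and the part of these markers in the results on subunits was not tested. Gene-level counts of Cux1 and Cux2 include reads outside the deleted parts and do not check the labels, and neither passed the test in its own KO.

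Among the 86 nuclear members, summed CPM (scaled by the trimmed mean of M values, TMM) was higher at each later stage in WT. The lowest, median and highest sums were 8022, 8780 and 9707 in the 8 E19 libraries, 11130, 12990 and 15290 in the 6 P4 libraries, and 16440, 17930 and 18590 in the 5 P7 libraries. No library of a later stage overlapped an earlier one. The 13 mitochondrially encoded members moved otherwise, with 7182, 7673 and 9497 CPM at E19. Their sums were 1287, 2975 and 5497 at P4, then 3812, 4469 and 8080 at P7, so that P4 lay wholly below E19 and P7 overlapped both.

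**Figure D1:**
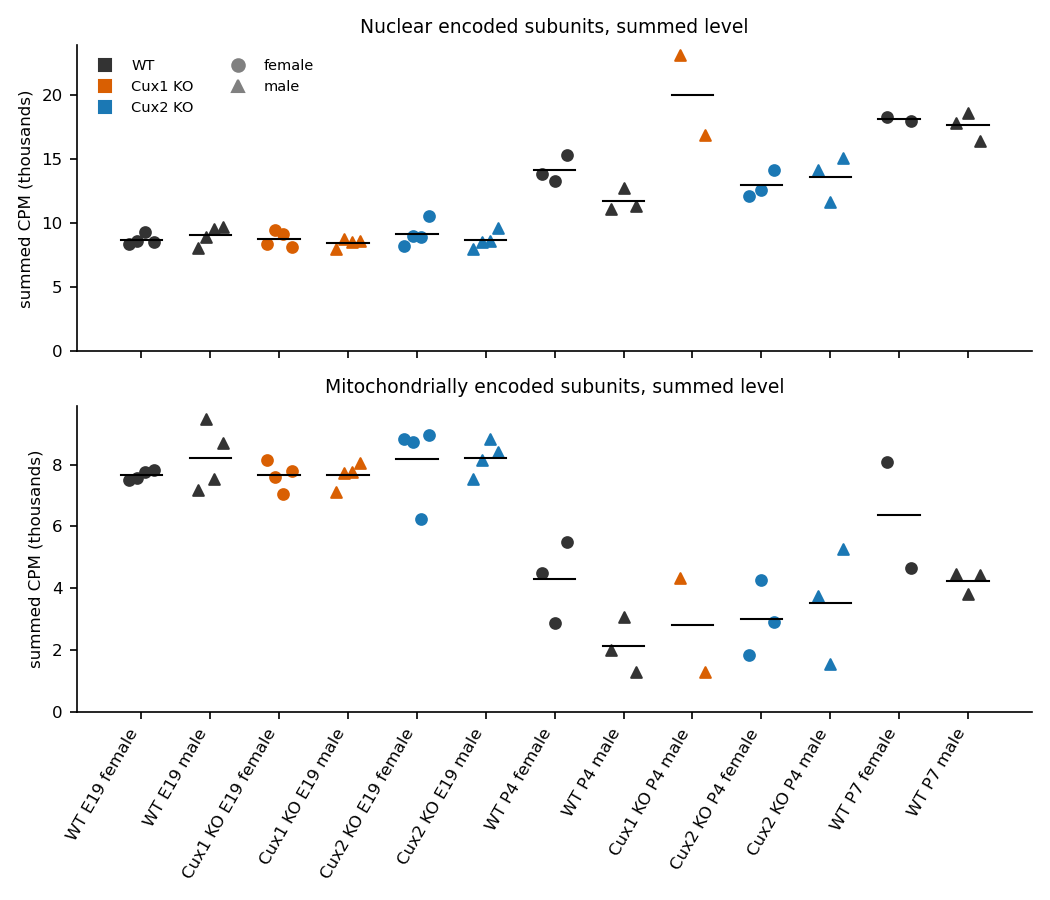
Summed TMM-scaled CPM (in units of 1000) of the 86 nuclear and the 13 mitochondrially encoded subunits in each of the 43 libraries, by genotype, stage and sex, with bars at group means. Nuclear sums of WT lie at 8022 to 9707 at E19 and at 16440 to 18590 at P7, and the highest of all libraries is a Cux1 KO P4 male at 23100.

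Between WT E19 and WT P4 (edgeR quasi-likelihood test with Benjamini-Hochberg adjustment, sex as covariate, calls at an adjusted p under 0.05 with a log2 fold change past 1 in size), 28 of the 81 nuclear members tested rose and none fell, and 9 of the 13 mitochondrial members fell and none rose. Of all 20091 genes tested, 22.6% rose and 23.3% fell. The median log2 fold change was 0.76 over nuclear members, -1.30 over mitochondrial members and 0.04 over all genes. Without the fold threshold 67 nuclear members rose and 3 fell, against 34.6% and 32.5% of all genes. With the log2 library total as covariate 48 nuclear members passed, all higher and 26 of them among the 28, with a median of 1.14. Without the P4 libraries over 30000000 counts 38 did, also all higher, with a median of 0.99. The WT totals did not overlap between these stages, at 13321095 to 18199349 counts at E19 and 20919432 to 60559585 at P4. The library total therefore cannot be fully told apart from stage, and the covariate fit does not separate them. The shares of all genes given here are from the main fit, so the 48 and 38 are not set against a share of their own.

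Complex I, the entry point for NADH, had 15 of 38 tested nuclear subunits higher at P4, with a median log2 fold change of 0.81. Ndufa12, an accessory subunit, stood at 29.5, 38.6 and 43.9 CPM (lowest, median, highest) in the E19 libraries and at 103, 152 and 210 in those of P4. The ranges did not meet, and its log2 fold change was 1.98 ± 0.13 (SE, adjusted p = 7.02e-09). At P7 Ndufa12 reached 198 to 225 CPM. Ndufb4, likewise an accessory subunit, rose by 1.65 on the log2 scale, Ndufs8, an iron-sulfur subunit of the peripheral arm, by 1.54, Ndufb8 by 1.48 and Ndufc1 by 1.43. The core subunit Ndufv1, which binds NADH, had a log2 fold change of 0.00 (adjusted p = 0.979).

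Complex II, also an enzyme of the citric acid cycle, had 2 of 4 subunits higher and a median of 1.00. Sdhd, a membrane anchor, stood at 70.8, 82.1 and 93.7 CPM at E19 and at 209, 261 and 295 at P4, without overlap, a log2 fold change of 1.64 ± 0.10 (SE, adjusted p = 2.7e-09). The iron-sulfur subunit Sdhb rose by 1.33, from 133 to 163 CPM at E19 to 273 to 455 at P4.

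Complex III, which hands electrons to cytochrome c, had the highest median of the nuclear groups at 1.04, with 5 of 8 subunits higher. Uqcrb, the ubiquinone-binding protein, stood at 21.2, 28.6 and 33 CPM at E19 and at 75.6, 93.6 and 117 at P4, a log2 fold change of 1.72 ± 0.13 (SE, adjusted p = 2.4e-08) with no overlap. Uqcr10 rose by 1.43, and the core protein Uqcrc1 by 1.25 with the smallest adjusted p of the nuclear members (6.28e-10). At P7 Uqcrc1 stood at 554 to 666 CPM against 167 to 196 at E19.

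Complex IV, cytochrome c oxidase, had 5 of 14 tested nuclear subunits higher and a median of 0.67. Its called members were Cox6b2, Cox5a, Cox7a1, Cox5b-ps and Cox8a, of which Cox5b-ps is a copy of Cox5b that can share its reads and is uncertain. Cox5a stood at 37.2 to 52.4 CPM at E19 and at 92.5 to 142 at P4, a log2 fold change of 1.32 without overlap.

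Complex V, ATP synthase, had the lowest median at 0.21, with 1 of 17 subunits higher. Its median was 0.48 with 6 subunits higher under the log2 total as covariate, and 0.38 with 5 higher without the P4 libraries over 30000000 counts. Complex V had the lowest median of the nuclear groups in both of these fits too. Both large subunits of its catalytic head were lower on the adjusted p alone, without reaching the fold threshold. Atp5a1, the alpha subunit, stood at 826, 894 and 975 CPM at E19 and at 540, 623 and 763 at P4, so that all P4 libraries lay below all E19 libraries, with a log2 fold change of -0.48 ± 0.07 (SE, adjusted p = 4.09e-05). Atp5b, the beta subunit, had a log2 fold change of -0.29 (adjusted p = 0.0295), but 0.28 with the covariate and 0.03 without the deep P4 libraries, neither passing, and stood at 914 to 1010 CPM at P7. The difference of complex V from the other complexes was not tested. Summed per complex in WT, the nuclear CPM at P4 overlapped E19 for complexes IV and V but not for complexes I to III, and P7 lay above E19 for all 5.

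**Figure D2:**
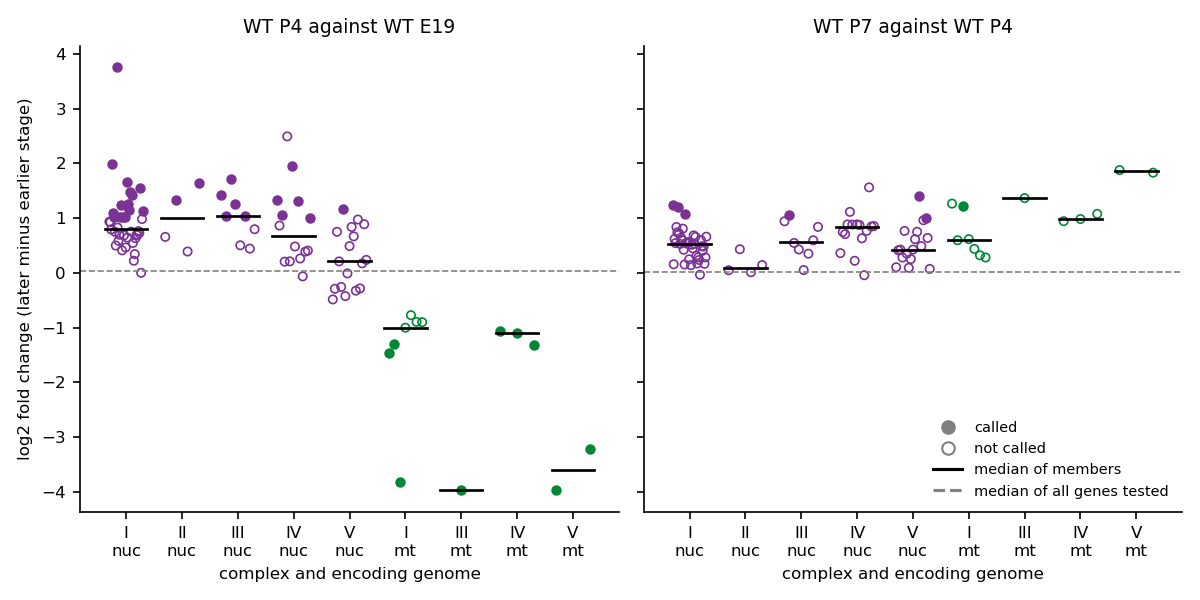
Log2 fold change of each tested subunit in WT, P4 minus E19 and P7 minus P4, by complex and encoding genome (nuc, nuclear; mt, mitochondrial), with black bars at medians and dashed lines at the median of all genes tested. Filled points passed both thresholds; nuclear medians at P4 run from 0.21 in complex V to 1.04 in complex III, and all mitochondrial points lie below 0 in P4 minus E19 and above 0 in P7 minus P4.

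The 54 nuclear members whose P4 libraries all lay above all E19 libraries stood against 1 whose libraries all lay below, Atp5a1, and 9 of 13 mitochondrial members lay wholly below. Of all genes tested, 20.3% lay wholly above and 24.5% wholly below. The stage comparison kept its direction for nuclear members on both sides of a split at 3 reads per base. Of the 44 with under 3 reads per base (mean over all libraries), 42 had a log2 fold change over 0, with a median of 0.80 against 0.03 for all genes of that density. Of the 37 denser members 31 did, with a median of 0.73 against 0.15. The direction was not kept at 10 or more reads per base. The 29 genes there, 6 of them mitochondrial members, had a median of -0.92, and Atp5b, the 1 nuclear member, had -0.29.

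Isoforms of the same subunit had log2 fold changes of unlike size, a contrast that was not itself tested. Cox6b2, the minor isoform of Cox6b1, stood at 0.628, 0.94 and 1.79 CPM at E19 and at 1.62, 2.98 and 7.51 at P4, with a slight overlap and a log2 fold change of 1.96 ± 0.43 (SE, adjusted p = 0.000869), while Cox6b1 itself had 0.21 (adjusted p = 0.35). With the log2 library total as covariate Cox6b1 passed at 1.33 and Cox6b2 at 2.17. Ndufa4l2, a relative of Ndufa4, went from 0.248, 0.505 and 2 CPM to 4.96, 8.36 and 13.8, a log2 fold change of 3.77 ± 0.38 (SE, adjusted p = 5.02e-07), and Ndufa4 had 0.50 (adjusted p = 0.0103). Cox7a1, the isoform known from heart and muscle, rose by 1.32, from 0.247 to 0.9 CPM at E19 to 0.935 to 2.53 at P4, whereas Cox7a2 had 0.26 and Cox7a2l -0.06, neither passing the test. The call of Cox7a1 was lost with the covariate (1.04, adjusted p = 0.339) and without the deep P4 libraries (1.43, adjusted p = 0.0878). Over the same WT libraries the 5 mural cell markers summed to 22.4 to 62.8 CPM at E19 and 104 to 395 at P4. Of the 5, 2 were called higher, against 22.6% of all genes tested, and the part of these markers in the isoforms was not tested.

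Cox4i2, outside the rule, had a log2 fold change of 1.81 ± 0.27 (SE, adjusted p = 2.86e-05) at 4.14 to 9.02 CPM in P4. The ubiquitous Cox4i1 had -0.13 (adjusted p = 0.638) at 102 to 469 CPM. With the log2 library total as covariate Cox4i1 had 1.16, and without the deep P4 libraries it had 0.544. Its WT counts at P4 were 6971 to 11608 across libraries of unlike total. The value of -0.13 is therefore not read as an unchanged level of Cox4i1. Cox6a2, the muscle isoform, was at 0 to 0.745 CPM at E19 and 0 to 2.29 at P4 (adjusted p = 0.0537). Cox7b had 0.39 (adjusted p = 0.00252), under the fold threshold. Cox8a rose by 1.01, and its relatives Cox8b and Cox8c were at 0 in all WT P4 libraries, as was Cox7b2 in 4 of the 6.

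The 3 genes for subunit c of ATP synthase, which make the same mature protein, moved in different ways. Atp5g1 stood at 34.7, 41.2 and 47.3 CPM at E19 and at 73.3, 94.5 and 107 at P4, without overlap, and rose by 1.17 ± 0.10 (SE, log2 scale, adjusted p = 1.23e-07). Atp5g2 stood at 42, 52.7 and 62.4 CPM and at 33.2, 38.4 and 42.6, with a log2 fold change of -0.42 (adjusted p = 0.00395), and Atp5g3 at 222 to 291 and 198 to 290 CPM, with -0.01 (adjusted p = 0.943).

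**Figure D3:**
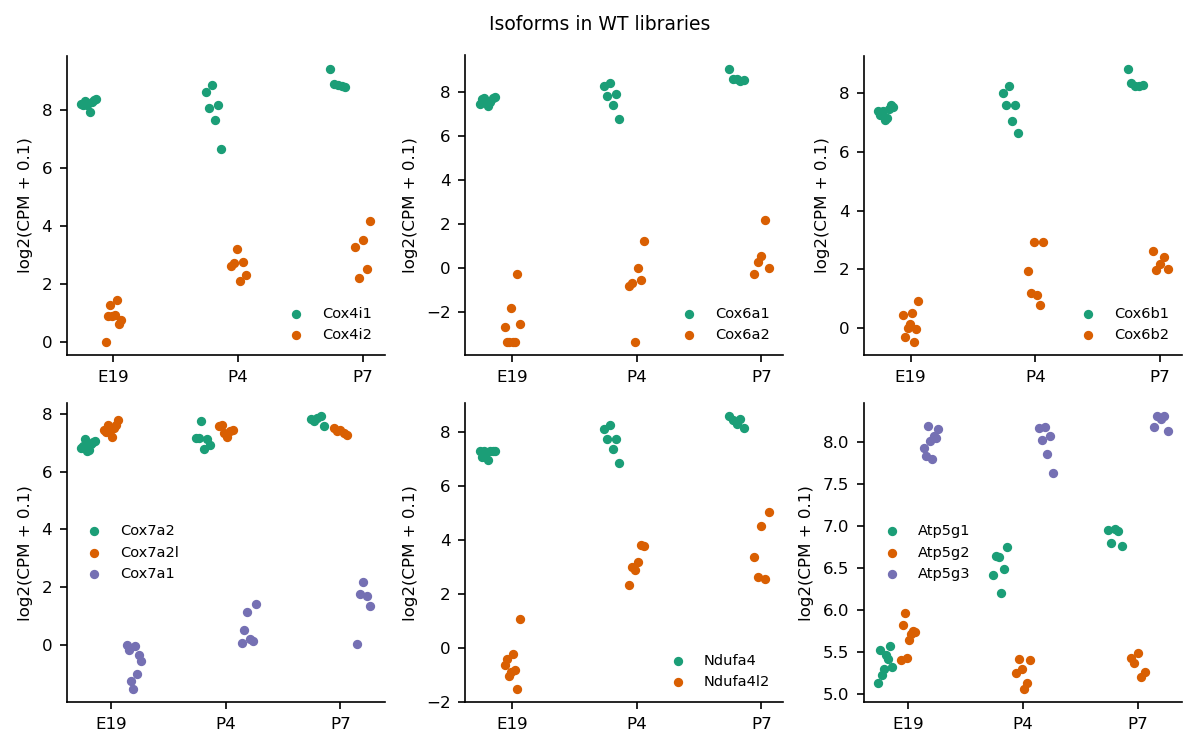
Levels of subunit isoforms in WT libraries of E19, P4 and P7 as log2(CPM + 0.1), each point 1 library. Cox4i2, Cox6b2, Cox7a1 and Ndufa4l2 lie higher at P4 than at E19, Atp5g1 lies higher and Atp5g2 mostly lower.

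All 13 mitochondrial members had lower CPM at P4 than at E19 on the adjusted p alone, and their counts moved with the size of the library. mt-Co1, the catalytic subunit of complex IV, stood at 1030, 1150 and 1490 CPM at E19 and at 111, 563 and 1200 at P4, with its lowest value in the deepest P4 library, and fell by 1.06 on the log2 scale (SE 0.35, adjusted p = 0.015), but had 0.88 with the log2 library total as covariate and -0.06 without the P4 libraries over 30000000 counts. mt-Cytb, the cytochrome b of complex III, stood at 825 to 1250 CPM at E19 and at 1.11 to 335 at P4, a log2 fold change of -3.96 ± 0.88 (SE, adjusted p = 0.00108). mt-Atp6 stood at 466 to 667 CPM at E19 and at 0 to 196 at P4 (log2 fold change -3.97, adjusted p = 0.00331), and its neighbour mt-Atp8 had -3.21.

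In raw counts, mt-Atp6 had 0 in 4 libraries, WT male replicate 3, Cux2 KO male replicate 2 and both Cux1 KO males of P4, and between 7761 and 9001 in the WT libraries of E19. Except for 1 Cux1 KO male these libraries were deeper than every E19 library, and a count of 0 allows at most 3 counts. mt-Cytb had 13979 to 15886 counts in WT at E19 and 76 to 7537 at P4. The authors had removed reads at positions that held more than 50 copies before counting, a step that by its construction bears more on dense genes and on deep libraries, and no mitochondrial member exceeded 19.9 reads per base in any library. Nuclear members reached up to 19.1 reads per base. In WT at P4 the counts of Cox6b1 stayed at 6787 to 7710 across libraries of unlike total, whereas those of Sdhd spanned 4834 to 20170. The part of this step in the mitochondrial and in the nuclear values was not tested.

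Adding the log2 library total as a covariate removed most of these calls, leaving 1 mitochondrial member higher (mt-Co2, log2 fold change 1.19) and 1 lower (mt-Nd3). Leaving out the P4 libraries over 30000000 counts, which left 2 WT females at P4, gave 5 lower. mt-Nd3, a core subunit of complex I, kept its difference in both fits, although WT totals did not overlap between the stages and the covariate cannot fully separate them. It stood at 137, 160 and 187 CPM at E19 and at 7.02, 11.3 and 16.3 at P4, a log2 fold change of -3.81 ± 0.19 (SE, adjusted p = 3.46e-10), -3.71 with the covariate and -3.66 without the deep libraries. Its WT counts were 2045 to 2662 at E19, against 227 to 938 at P4, with 306 to 1135 at P7.

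The remaining complex I members mt-Nd2, mt-Nd4, mt-Nd4l, mt-Nd5 and mt-Nd6 had log2 fold changes of -1.30, -0.999, -0.77, -0.89 and -0.90, of which the first passed the fold threshold. mt-Nd1, mt-Co2 and mt-Co3 fell, with log2 fold changes of -1.46, -1.10 and -1.31, but had 1.28, 1.19 and 1.33 with the covariate. Per length, as the median over WT E19 libraries, the mitochondrial members stood between 364 CPM per kb (mt-Nd4l) and 863 (mt-Nd1), against 475 for Atp5b, 388 for Cox4i1 and 362 for Atp5a1. In these counts mt-Nd4l, mt-Atp8 (410), mt-Nd5 (416) and mt-Nd3 (460) lay below Atp5b, and the other mitochondrial members lay above it. The counts are of reads left after the authors' removal of duplicated reads, a step that bears more on dense genes. The order is therefore one of remaining reads and does not rank the abundance of mitochondrial and nuclear mRNA, which was not tested.

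**Figure D4:**
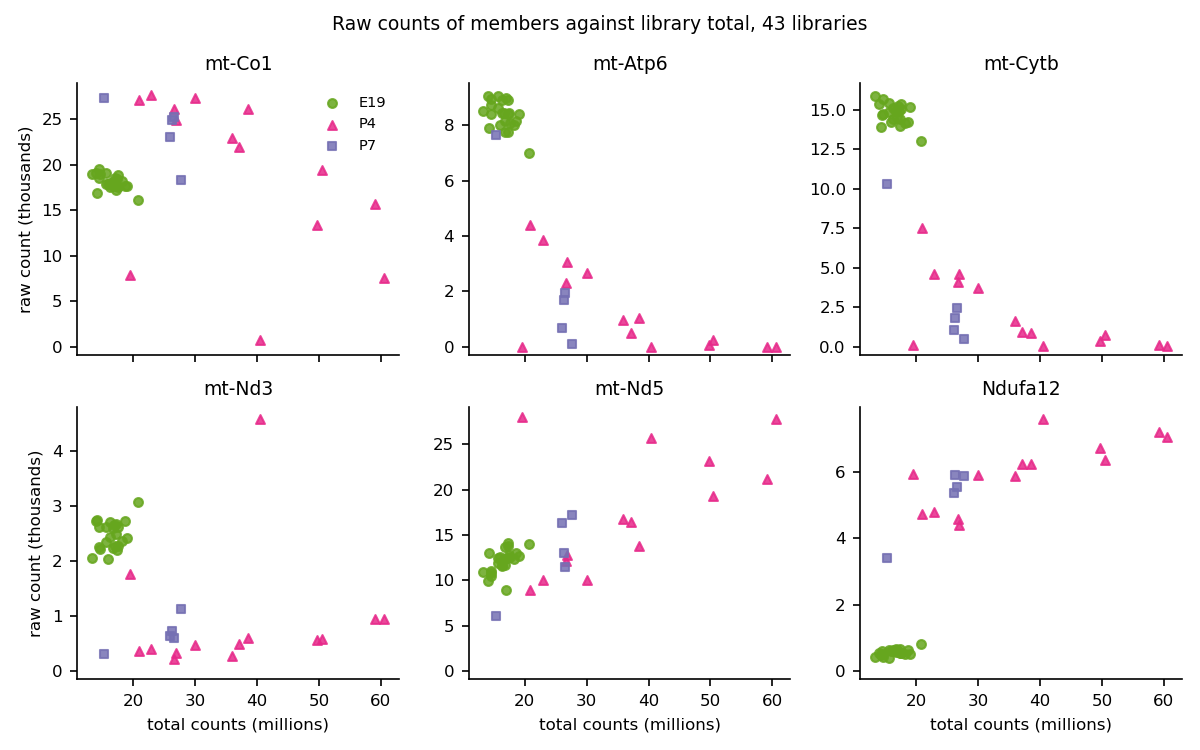
Raw counts (in units of 1000) of 5 mitochondrially encoded subunits and of Ndufa12 against the total count of each of the 43 libraries (in units of 1000000), coloured by stage. mt-Atp6 and mt-Cytb approach 0 in libraries of large total, mt-Nd5 and Ndufa12 do not, and mt-Nd3 is lower in WT at P4 and P7 than at E19 whatever the total.

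The mitochondrial genes overlap each other, which limits how reads can be assigned to them. mt-Atp8 and mt-Atp6, whose values were the lowest in deep libraries, share 43 bases at chrM:7927-7969 (GRCm39, plus strand), shown here with the start codon of mt-Atp6 and the stop codon of mt-Atp8 in capitals.

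mt-Atp8 and mt-Atp6 shared bases: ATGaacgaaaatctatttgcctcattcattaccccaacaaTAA

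mt-Nd4l and mt-Nd4 share 7 bases, mt-Atp6 and mt-Co3 share 1, and mt-Nd5 and mt-Nd6 share 14 on opposite strands. The strand setting of the counting was not stated, so reads from mt-Nd5 and mt-Nd6 cannot be told apart over those bases.

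Nuclear subunit promoters are known for binding sites of NRF1, GABPA, YY1 and CREB. Windows of 300 bases around the start (250 before, 50 after; RefSeq, GRCm38.p6) were found for 69 of the 86 nuclear members and searched on both strands for exact letters. GCGCATGC, the core NRF1 letters, stood in 14.5% of the members' promoters against 3.05% of all promoters. AAGATGGC, the YY1 letters, stood in 14.5% against 3.19%, CCGGAAGT, the GABPA letters, in 7.25% against 4.31%, and TGACGTCA, the CREB letters, in 5.8% against 2.03%. In promoters of mitochondrial ribosomal proteins the shares were 11.6% for NRF1, 17.4% for YY1, 17.4% for GABPA and 2.9% for CREB. The YY1 and GABPA letters were thus not more frequent in the subunits than there. In those of cytoplasmic ribosomal proteins, taken by gene name, they were 6.67% for NRF1, 8.0% for YY1, 17.3% for GABPA and 6.67% for CREB. The GABPA and CREB letters were not more frequent in the subunits than in this list. The CREB letters stood in 4 of 69 subunit genes and 2 of 69 mitochondrial ribosomal ones.

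The 10 members with the NRF1 letters did not share a direction between E19 and P4. They were Atp5g2, Atp5k, Atp5l, Cox6a1, Ndufa6, Ndufa8, Ndufa11, Sdhb, Uqcr11 and Uqcrc1, with log2 fold changes from -0.42 to 1.33 and a median of 0.89. None of the 4 motifs stood in 42 members, and those of them that were tested had a median of 0.73. Of the 10 with the NRF1 letters, Uqcr11 also held the GABPA letters and Ndufa11 the CREB letters. The 250 bases before the start of the members at either end of the range of these 10 are shown with the NRF1 letters, read on either strand, in capitals. Sdhb (chr4:140961021-140961270, plus strand) had a log2 fold change of 1.33 and passed the test, and Atp5g2 (chr15:102671048-102671297, minus strand) had -0.42, short of the fold threshold.

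Sdhb: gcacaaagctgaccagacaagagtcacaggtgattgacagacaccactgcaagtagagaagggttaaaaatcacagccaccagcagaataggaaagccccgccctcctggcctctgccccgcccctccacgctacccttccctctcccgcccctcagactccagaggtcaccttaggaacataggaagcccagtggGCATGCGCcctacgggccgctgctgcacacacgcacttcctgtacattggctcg
Atp5g2: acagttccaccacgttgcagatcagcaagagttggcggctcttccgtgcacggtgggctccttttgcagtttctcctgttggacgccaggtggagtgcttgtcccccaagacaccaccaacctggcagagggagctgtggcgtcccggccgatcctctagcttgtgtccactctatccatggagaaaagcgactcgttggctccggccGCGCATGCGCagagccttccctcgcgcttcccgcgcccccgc

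Other genes of the pathway were compared between WT P4 and E19 from lists chosen by function. The counts of all these lists stand beside 22.6% of all genes tested higher and 23.3% lower. Assembly factors of the complexes had 16 of 45 higher and none lower (median log2 fold change 0.71), with Cox11, a copper chaperone of complex IV, at 2.22 and Cox10, which makes its heme, at 1.73. Of the respiratory chain genes outside the rule 3 of 5 rose, Cycs, the somatic cytochrome c, by 1.77 and Ndufab1, the acyl carrier of complex I, by 1.85. Mitochondrial ribosomal proteins, which translate the mitochondrial subunits, had 37 of 77 higher and none lower (median 0.97), with Mrps34 at 2.22 and Mrps14 at 2.17.

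Cytoplasmic ribosomal proteins had 3 of 86 higher and 36 lower (median -0.89), with Rps12 at -4.31. These counts leave out 11 genes that the name pattern also took, the Rps6k kinases and Rps19bp1, among them Rps6kl1 at -2.84, and with them 4 of 97 were higher and 42 lower. Factors of mitochondrial DNA expression and biogenesis had 3 of 15 higher and 4 lower, close to the shares of all genes tested (22.6% and 23.3%). Among them Ppargc1a, the coactivator of respiratory genes, rose by 2.16, Esrra, the receptor it acts with, fell by 2.59 and Polrmt, the mitochondrial RNA polymerase, fell by 2.16. In the citric acid cycle 3 of 16 rose and 1 fell, with Suclg2 at 2.17 and Sucla2 at 1.73, and in glycolysis 5 of 17 fell and none rose, with Eno2, the enolase of neurons, at -3.40 and Hk1 at -1.94. The excitatory neuron markers fell in 7 of 7 (median -3.77) over the same libraries.

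From WT P4 to WT P7, 6 of 82 nuclear members and 1 of 13 mitochondrial members rose and none fell, against 1.42% of 22385 genes higher and 0.63% lower. The nuclear median was 0.55, against 0.02 for all genes, and 80 of the 82 lay above 0. Without the fold threshold 48 nuclear members rose, against 3.19% of all genes.

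The called nuclear members are all known as small accessory subunits. Atp5k, the e subunit of ATP synthase, stood at 30.2, 34.2 and 56.5 CPM in P4 females, 26.1, 34.1 and 31.3 in P4 males, 78.4 and 83.4 in P7 females and 97.4, 117 and 87.8 in P7 males. The stages did not overlap, and the log2 fold change was 1.40 ± 0.20 (SE, adjusted p = 0.00628). At E19 the same gene stood at 30.3 to 52.2 CPM.

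Ndufa1 went from 50.9 to 74.5 CPM at P4 to 120 to 179 at P7 (log2 fold change 1.24, adjusted p = 0.00403). Ndufa3 went from 78.8 to 128 CPM to 179 to 225 (1.20, adjusted p = 0.0036). Neither overlapped between the stages, nor did Ndufb1 (1.07, adjusted p = 0.0106) or Uqcr11 of complex III (1.05, adjusted p = 0.0036). Atp5mpl, a small subunit of complex V, had 1.00 (adjusted p = 0.0131) and mt-Nd3 had 1.22 (adjusted p = 0.0287). By complex the nuclear medians were 0.54, 0.10, 0.57, 0.85 and 0.43 from I to V, and complex IV, with the highest, had 0 called.

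Libraries of all P7 lay above all P4 for 46 of 86 nuclear and 2 of 13 mitochondrial members, against 4.13% of all genes tested. With the log2 total as covariate 2 members passed, with a nuclear median of 0.39. Without the P4 libraries over 30000000 counts, which left 2 WT females and no male at P4, 0 members and 0 of all genes passed in edgeR, with a nuclear median of 0.35. DESeq2 on all libraries called 7 members, and for that fit and the covariate fit no share of all genes was computed. Members under 3 reads per base had a median of 0.54 and denser ones 0.55, against 0.01 and 0.21 for all genes of the same density. In the other lists Pet100, an assembly factor of complex IV, rose by 1.07, Pfkp, a phosphofructokinase, by 1.18, and Rps29 and Rps28 by 1.37 and 1.32, while no mitochondrial ribosomal protein passed (median 0.06). Over the same interval 7 of 8 microglia markers and 3 of 7 astrocyte and radial glia markers rose, and their part in the subunits was not tested.

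In P4 males, the summed nuclear CPM was 11130, 12710 and 11350 in WT, 23100 and 16880 in Cux1 KO and 14130, 11670 and 15050 in Cux2 KO. Both Cux1 KO libraries lay above all other P4 males. In edgeR 0 of 95 members and 0 of 19601 genes (0%) passed in Cux1 KO against WT, where the smallest adjusted p of any gene was 0.0764. At an unadjusted p under 0.05 there were 58 nuclear and 2 mitochondrial members, against 20.5% of all genes. DESeq2 called 3233 genes, 19 of them members (18 higher). EdgeR with all P4 groups in one fit called 2597 genes, 19 of them members, all higher. Shares of all genes tested were not computed for these fits, so the counts of members are not read against them.

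The log2 fold change lay above 0 for 78 of 82 nuclear members, with a median of 0.84 against -0.18 for all genes. By complex the medians were 0.84, 0.35, 0.85, 0.86 and 0.81 from I to V, and with the log2 total as covariate the nuclear median was 0.53. Ndufa1 stood at 54.8, 54.6 and 67.3 CPM in WT and at 189 and 152 in Cux1 KO (log2 fold change 1.52, adjusted p = 0.0764). Ndufa5 stood at 68.2, 81.7 and 86.6 CPM in WT and at 207 and 191 in Cux1 KO (1.32, adjusted p = 0.0764). Neither gene overlapped between the genotypes, and neither passed the threshold.

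Members under 3 reads per base had a median of 0.81, against -0.22 for all genes of that density, and denser members 0.85 against 0.57. Cytoplasmic ribosomal proteins, without the same 11 genes, had a median of 0.98, mitochondrial ribosomal proteins 0.28 and assembly factors 0.11, none of them with a call. The Cux1 KO libraries also stood apart in other ways. They detected 17049 and 19115 genes against 20844 to 23736 in the other P4 libraries, and their totals were 19499125 and 40421655 counts. Neurod2, a factor of excitatory neurons, stood at 86 to 89.7 CPM in them and 12.1 to 22.6 in WT males, and the 7 excitatory neuron markers summed to 1077 and 1088 CPM against 322.7 to 650.3. The 6 endothelial markers summed to 0 and 33.21 against 103 to 208.2, and the 5 markers of ciliated cells to 0.139 and 0.151 against 37.58 to 102.6. The study noted more death of Cux1 KO neurons during dissociation. The part of these differences in the subunits was not tested.

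**Figure D5:**
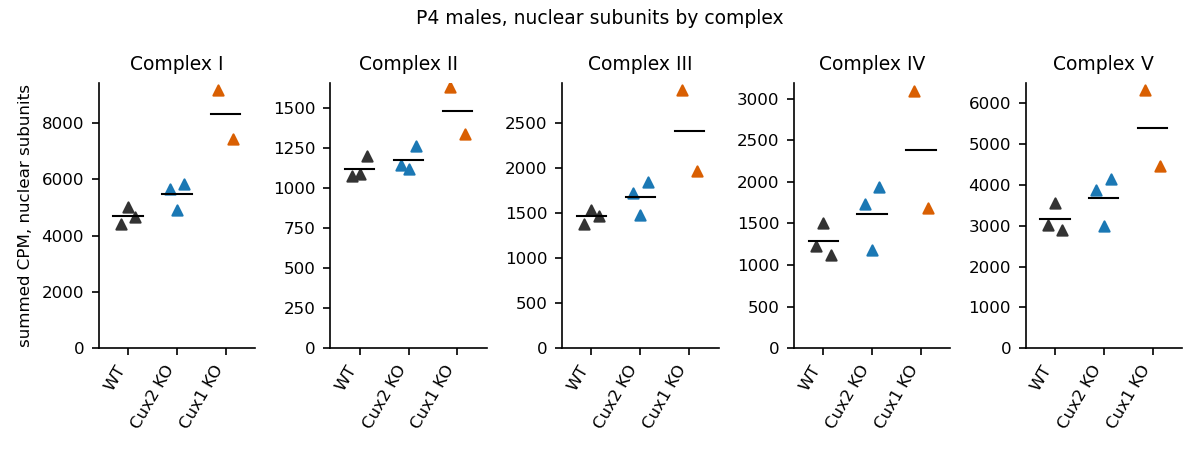
Summed TMM-scaled CPM of the nuclear subunits of each complex in the P4 males, each point 1 library with bars at group means. Both Cux1 KO libraries lie above all 3 WT libraries in every complex.

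The mitochondrial members did not move together in the P4 Cux1 KO males. mt-Nd3 stood at 10.4, 7.02 and 13.7 CPM in WT and at 88.9 and 106 in Cux1 KO, without overlap (log2 fold change 3.22, SE 0.35, adjusted p = 0.0764). mt-Nd5 had a log2 fold change of 1.33 and mt-Nd4l one of 1.22, both with an adjusted p over the threshold. mt-Co1 was at 395 and 17.3 CPM in the Cux1 KO libraries and mt-Cytb at 5.58 and 0.44, and mt-Nd1 and mt-Co3 were at 0 in replicate 2.

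In the other comparisons 0 members passed in edgeR or DESeq2. Between Cux1 KO and WT at E19, no member had an unadjusted p under 0.05 in females and 8 did in males, where 10 genes of 17376 (0.0576%) and 17 of 17362 (0.0979%) passed, and 6.87% and 10.4% of genes had such an unadjusted p. The nuclear median was 0.04 in females and -0.12 in males. The members with the smallest p in females were Ndufa6 (log2 fold change 0.22), Cox5b-ps (0.24) and Atp5d (0.15), with adjusted p from 0.735 to 0.755. In males they were Uqcr11 (-0.33), Atp5b (-0.16) and Cox5a (-0.27), with adjusted p from 0.376 to 0.407.

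Between Cux2 KO and WT at E19, 2 members in females and 3 in males had an unadjusted p under 0.05, where 5 genes (0.0287%) and 21 (0.121%) passed, and 4.62% and 7.94% of genes had such an unadjusted p. Cox8a (0.34) and Atp5d (0.25) had the smallest p in females, followed by Cox5b-ps (0.39), and Ndufa2 (-0.42), Ndufb3 (-0.31) and Cox6b2 (1.11) in males. The smallest adjusted p of a member was 0.91 in females and 0.539 in males. The summed nuclear CPM of E19 overlapped between each KO group and WT in both sexes.

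Between Cux2 KO and WT at P4, 0 of 19538 genes passed in females (0%) and 0 of 19720 in males (0%) in edgeR. Counts of members at an unadjusted p under 0.05 were 1 and 9, against 7.39% and 5.76% of genes. DESeq2 called 0 members and 179 and 371 genes. In females the smallest p belonged to Ndufs1 (log2 fold change 0.29), Atp5o (-0.34) and Cox8a (-0.26), in males to Ndufb1 (0.66), Ndufa1 (0.52) and Ndufa3 (0.43). The median of nuclear members was -0.14 in females and 0.22 in males. The comparisons of Cux1 KO and Cux2 KO share their WT libraries.

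Between WT females and males, no member passed at E19, P4 or P7, where 0.0461%, 0% and 0.0247% of genes did. Members with an unadjusted p under 0.05 numbered 1, 17 and 0, against 3.67%, 7.28% and 4.36% of genes. The nuclear median, female minus male, was -0.09 at E19 and 0.02 at P7. It was 0.25 at P4, where the log2 library total as covariate left 0.03. P4 totals were 20919432, 26654499 and 37079440 counts in females and 35891853, 50429979 and 60559585 in males. The smallest p at E19 belonged to Ndufb3 (-0.25), Ndufa13 (-0.21) and Atp5j2 (-0.21). At P4 it belonged to Ndufb11 (0.35), Atp5e (0.52) and Cox6b1 (0.84), each with an adjusted p of 0.675. At P7 it belonged to mt-Cytb (2.66), mt-Co1 (0.70) and mt-Atp8 (2.23), each with an adjusted p of 1.

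The X-linked members were Ndufb11, Ndufa1 and Cox7b. Their log2 differences between the sexes lay between -0.10 and -0.02 at E19, between 0.09 and 0.35 at P4, and between 0.01 and 0.04 at P7, and none passed the test.

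The KO by sex terms (KO minus WT in males less the same in females) had 0 members and 0 genes (0%) past an adjusted p of 0.05 in edgeR for Cux1 at E19, Cux2 at E19 and Cux2 at P4. DESeq2 called 0 members in each and 0, 0 and 278 genes. Members at an unadjusted p under 0.05 numbered 6, 3 and 10, against 3.81%, 3.78% and 7.27% of genes. The smallest p belonged to Ndufa6 (-0.40), Cox8a (-0.29) and Ndufa13 (-0.32) for Cux1, to Ndufb3 (-0.55), Ndufa13 (-0.35) and Ndufa8 (-0.37) for Cux2 at E19, and to Ndufb1 (0.84), Atp5e (0.76) and Ndufc1 (0.75) for Cux2 at P4, with adjusted p from 0.654 to 0.979.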

How the data were processed

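RNA libraries had been made by the authors from 300 pg of total RNA with a low-input kit and sequenced as 60-nucleotide single-end reads. The authors aligned these to GRCm39 with hisat2 (Y chromosome masked for females, its pseudoautosomal regions for males), removed duplicated reads with removeDupReads of Rsubread at a threshold of 50, and ran featureCounts on primary alignments over the Ensembl annotation. Per the labels, HISAT2, featureCounts, DESeq and DESeq2 were used, and no versions or strand setting are given in the sources used here. The deposited table holds raw counts for 56980 genes in 43 libraries, of which 0 columns were left out. Totals lay between 13321095 and 60559585 counts, and intervals from counts cover counting error only, since no molecular identifiers were used.

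The quasi-likelihood test of edgeR 4.0.16 was run in R 4.3.3 for each comparison over all genes passing filterByExpr, with TMM scaling and only the libraries of its groups. Calls needed a p under 0.05 after Benjamini-Hochberg adjustment and a log2 fold change whose size exceeded 0.5 (comparisons within E19) or 1 (those with P4 or P7). KO by sex was an interaction term called on adjusted p alone. Stage comparisons in WT had sex as a covariate. CPM values are TMM-scaled over all libraries. CPM per kb and reads per base use the exon length of the canonical transcript of each gene in GENCODE M39. The tests recovered known changes in simulated data where 200 genes moved by a log2 fold change of 2 and no others moved. Smaller changes, such as those of most subunits, and changes in a large share of genes were not simulated.

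Genes named are the 13 mitochondrially encoded members, Cox4i1, Cux1, Cux2, the 4 called nuclear members that moved most in either direction per comparison and the one that moved most in each complex, the 3 of smallest p where under 3 were called, the isoform families, the X-linked members, and the 2 called genes of largest change per other list. Other genes, among them further called members, Ndufv1, Ppargc1a and those with the NRF1 letters, were named after their values were seen, as were the 11 genes left out of the ribosomal proteins. The members and lists were chosen with earlier results of these data known. Of the 18 listed factors of mitochondrial DNA expression, 16 were matched. The alternatives were DESeq2 1.42.0 without shrinkage, its size factors in edgeR, no filter, scaling without mitochondrially encoded genes, a fit with every group of the stage, the log2 library total as a covariate, no fold threshold, a replicate block, and leaving out each library. Leaving out P4 libraries over 30000000 counts, the split at 3 reads per base and edgeR with robust prior spread were chosen after seeing the data.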

Additional observations from a re-analysis of the deposited data

Results flagged for a closer look

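In the E19 groups of 4 libraries, 9 of 126 values tested had a highest or lowest library whose gap to its nearest neighbour exceeded Dixon's limit, where chance gives about 1 in 20. Of these, 7 belonged to Cux2 KO E19 female replicate 3, the library with the largest total of its stage (20715732 counts). Its summed mitochondrially encoded level was 6240 CPM against 8727 to 8952 in the other 3, while mt-Nd1 stood at 593 CPM, mt-Co1 at 815, mt-Co2 at 409, mt-Atp6 at 354, mt-Co3 at 490 and mt-Cytb at 659, each the lowest of its group. mt-Nd6 stood at 284 CPM in Cux1 KO E19 female replicate 1 against 250 to 254 in the others of that group. In WT E19 female replicate 2, mt-Nd6 stood at 181 CPM against 254 to 266. The values tested were the mitochondrially encoded members, Cox4i1 and the summed levels of both genomes and of each nuclear complex. Nuclear members were not tested one by one, and no nuclear sum was flagged.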

How the results depend on the processing

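Counts of called members, both genomes together, kept within 1.5 times of those reported under every alternative except these. Without the fold threshold 83 passed between WT P4 and E19 and 50 between WT P7 and P4. Between WT P7 and P4, 2 passed with the log2 library total as covariate and 0 without the P4 libraries over 30000000 counts, and 4 (without WT P7 male replicate 2) to 10 when libraries were left out in turn. Between Cux1 KO and WT in P4 males, 19 passed with DESeq2 and with all P4 groups in one fit, and 0 to 7 when libraries were left out (7 without Cux1 KO replicate 2). Between WT P4 and E19 leaving out libraries gave 32 to 40. By genome and complex, the log2 total as covariate moved that comparison from 28 to 48 nuclear and from 9 to 2 mitochondrial calls, from 15 to 25 in complex I, from 5 to 8 in complex IV and from 1 to 6 in complex V, and leaving out the deep P4 libraries gave 5 mitochondrial calls and 5 in complex V. Without the filter on low counts complex V had 2. The count by library total instead of TMM moved the median of all genes by 0.20 on the log2 scale between WT P4 and E19. With the replicate number as a block 35, 8 and 0 members passed in these comparisons and 0 in all others. Replicate numbers did not pair the libraries, since residuals of same-numbered libraries correlated at a mean of -0.0862 to 0.233 and in no comparison of 3 or more numbers did every pair exceed 0.1. With the log2 total as covariate, the log2 fold change between WT P4 and E19 changed sign for mt-Atp6 (0.253), mt-Nd1 (1.28), mt-Co1 (0.875), mt-Co2 (1.19), mt-Atp8 (1.07), mt-Co3 (1.33), Cox6a2 (-0.338), Cox7a2l (0.0747), Atp5g3 (0.408) and Cox4i1 (1.16). Between WT P7 and P4 it did so for mt-Nd1 (-0.242), mt-Co1 (-0.203), mt-Co2 (-0.295), mt-Atp8 (-1.57), mt-Atp6 (-1.71), mt-Co3 (-0.484) and mt-Cytb (-1.92), in Cux1 KO P4 males for mt-Nd2 (-0.48) and mt-Nd4 (-1.94), and between the sexes at P4 for Cox7b (-0.178). Without the P4 libraries over 30000000 counts Cox7a2l had 0.0142, Atp5g3 0.194 and Cox4i1 0.544, and without the filter on low counts Cox7a2l had 0.03 and Atp5g3 0.0852. Atp5g3 had 0.00187 with DESeq2 and 0.0177 with the replicate block, under which mt-Nd4 (-0.481) and Cux1 (-0.00758) changed sign in Cux1 KO P4 males and Ndufb11 (-0.0289), Ndufa1 (-0.0631) and Cox7b (-0.0628) between the sexes at P7. Leaving out libraries in turn gave signs of both kinds, between WT P4 and E19, for Atp5g3 (-0.0451 to 0.0454) and Cox4i1 (-0.247 to 0.0604). In Cux1 KO P4 males it did so for mt-Nd2 (-0.338 to 1.3), mt-Co1 (-4.34 to 0.161), mt-Nd4 (-1.7 to 1.15) and Cux1 (-0.486 to 0.541), and for Cux2 in Cux2 KO P4 females (-0.0939 to 0.35) and males (-0.034 to 0.471). Between the sexes it did so at E19 for Ndufb11 (-0.141 to 0.0436) and Cox7b (-0.118 to 0.0215), at P4 for Ndufa1 (-0.0601 to 0.22) and Cox7b (-0.0607 to 0.19), and at P7 for mt-Cytb (-0.5 to 3.58), mt-Atp8 (-0.905 to 3.15), Ndufb11 (-0.0219 to 0.0942), Ndufa1 (-0.158 to 0.243) and Cox7b (-0.107 to 0.132). Of these only the mitochondrial values between WT P4 and E19 had passed the test, and the causes were not tested. With 2 or 3 libraries per group at P4 and P7, differences of the size of the spread between libraries were not detectable at this depth.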
